A study of Mus musculus with 18 samples.

Results

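The acute phase genes described here are Saa1, Saa2, Saa3 and Saa4 of the serum amyloid A family, Orm1, Orm2 and Orm3 of the orosomucoid family, and the single genes Lcn2, Hp and Hpx. They are 10 of the 15572 genes in the RNA-seq table of mouse liver, and they were chosen by name from a list drawn up with earlier results of these data known. All 10 passed the filter on low counts, which kept 14151 genes. RNA-seq was made from refed wild-type (WT) and refed JMJD1C-LKO mice, ATAC-seq from fasted WT, refed WT and refed JMJD1C-LKO mice, and H3K9me2 ChIP-seq from fasted WT and refed WT mice, with 2 samples in each group. JMJD1C is a histone demethylase that removes methyl groups from lysine 9 of histone H3, and the study asked what its loss in liver does to gene expression. In JMJD1C-LKO mice a floxed Jmjd1c allele was deleted by Cre under the albumin promoter, which is active in hepatocytes. Which other cells of the liver keep the gene is not given in the sources used here. All mice were C57BL/6J kept on chow for 6 to 8 weeks, and refed mice were fasted overnight and then given a high carbohydrate diet, for 6 h by the labels. The study describes its RNA-seq samples as pooled RNA, and the number of livers in a pool is not given in the sources used here.

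The acute phase response is the change in plasma proteins that the liver makes when tissue is injured or infected. Interleukin-6 and interleukin-1 from macrophages act on receptors of the hepatocyte, and through STAT3, NF-kB and the C/EBP factors they raise transcription of serum amyloid A, orosomucoid, lipocalin-2, haptoglobin and hemopexin, with glucocorticoids acting together with the cytokines. Serum amyloid A travels on high density lipoprotein, orosomucoid binds lipids and drugs, lipocalin-2 binds the iron carriers of bacteria, haptoglobin binds free hemoglobin and hemopexin binds free heme.

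The serum amyloid A genes lie together on mouse chromosome 7 and the orosomucoid genes on chromosome 4 (RefSeq annotation of GRCm38.p6, which is mm10). Saa3 (chr7:46711998-46715676), Saa4 (chr7:46727992-46732603) and Saa1 (chr7:46740497-46742980) are on the minus strand, and Saa2 (chr7:46751833-46754313) is on the plus strand. The starts of Saa1 and Saa2 are 8853 bp apart and face away from each other. Orm1 (chr4:63344556-63348163), Orm3 (chr4:63356158-63359506) and Orm2 (chr4:63362449-63365877) are all on the plus strand, with 17893 bp from the first start to the last. Lcn2 (chr2:32384637-32387739), Hp (chr8:109575128-109579172) and Hpx (chr7:105591611-105600116) are single genes on the minus strand.

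Saa1 and Saa2 are near copies, and the 369 coding bases of their RefSeq transcripts are 95.1% identical. The stretch of coding positions 92 to 151 is where the 2 genes differ most, and it is shown because reads over it can tell them apart. Capitals mark the 7 bases that differ.
Saa1: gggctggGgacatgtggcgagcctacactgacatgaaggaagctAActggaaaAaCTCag
Saa2: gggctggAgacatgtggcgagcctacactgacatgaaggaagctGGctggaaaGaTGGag
The Saa1 stretch lies at chr7:46741335-46741394 on the minus strand and the Saa2 stretch at chr7:46753418-46753477 on the plus strand. From coding position 286 to 358 the 2 sequences are the same for 73 bases in a row, and no read that lies within that run can be placed in one gene over the other.

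Orm1 and Orm2 share 89.9% of their 624 coding bases, Orm2 and Orm3 88.0%, and Orm1 and Orm3 86.1%. Coding positions 138 to 197 of Orm1 and Orm2 hold 17 differences, again in capitals.
Orm1: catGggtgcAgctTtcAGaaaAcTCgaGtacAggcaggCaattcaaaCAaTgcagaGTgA
Orm2: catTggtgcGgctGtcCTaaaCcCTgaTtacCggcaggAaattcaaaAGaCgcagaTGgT
These stretches lie at chr4:63345089-63345148 and chr4:63362964-63363023 on the plus strand. The longest run shared by both coding sequences is 104 bases, at positions 442 to 545. Saa3, at 74.5% identity to Saa1, and Saa4, at 61.6% to 63.5% identity to the other serum amyloid A genes, are further apart.

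**Figure D1:**
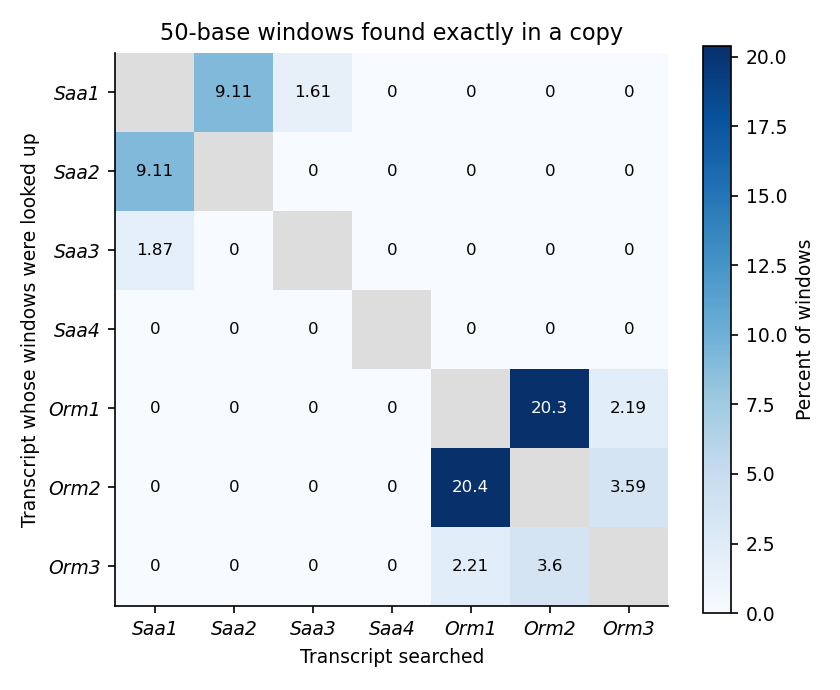
Percent of the 50-base windows of each transcript (rows) that occur exactly in another transcript of the family (columns), from RefSeq sequences; grey squares are a transcript with itself. The darkest squares are Orm1 with Orm2, at 20.3% and 20.4%, and Saa1 with Saa2, at 9.11%, and the row and column of Saa4 are 0.

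The sequence shared by these transcripts limits how well their reads can be assigned. Of the 560 windows of 50 bases in the Saa1 transcript, 51 (9.11%) occur exactly in Saa2 and 9 in Saa3. Of the 730 windows in Orm1, 148 (20.3%) occur exactly in Orm2 and 16 in Orm3, and Orm2 shares 26 of its windows with Orm3. No 50-base window of Saa4, Lcn2, Hp or Hpx occurs in another of the 10 genes. With 100-base windows only Orm1 and Orm2 still share any, 47 of them (6.9% of Orm1). The deposited counts are estimates that can split a read between transcripts, and those of Saa1, Saa2, Saa3, Orm1, Orm2 and Orm3 had a fractional part in all 4 libraries, whereas those of Saa4, Lcn2 and Hpx were whole numbers. Of the 10441 genes with a single transcript in the table, 21.6% had a fractional count in at least 1 library. RefSeq lists Saa2 among the older names of Saa1 and Saa1 among those of Saa2, so the 2 names can be exchanged between annotations.

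The sequences before the starts of 6 genes are shown because the changes in RNA were largest in 5 of them (Saa1, Saa2, Orm2, Orm3 and Lcn2), and because Hpx was the one gene of the 10 with an ATAC-seq summit at its start in any liver. Each runs 5′ to 3′ over the 250 bases before the start, taken from RefSeq on GRCm38.p6. Capitals mark the letters TTGCNNAA, a form of the site that C/EBP factors bind, searched on both strands, and TATAAA, the TATA box.
Saa1: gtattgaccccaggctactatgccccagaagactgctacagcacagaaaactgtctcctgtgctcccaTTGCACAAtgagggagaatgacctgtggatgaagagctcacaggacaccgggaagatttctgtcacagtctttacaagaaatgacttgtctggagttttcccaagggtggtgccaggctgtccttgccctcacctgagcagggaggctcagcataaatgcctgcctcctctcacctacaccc
Saa2: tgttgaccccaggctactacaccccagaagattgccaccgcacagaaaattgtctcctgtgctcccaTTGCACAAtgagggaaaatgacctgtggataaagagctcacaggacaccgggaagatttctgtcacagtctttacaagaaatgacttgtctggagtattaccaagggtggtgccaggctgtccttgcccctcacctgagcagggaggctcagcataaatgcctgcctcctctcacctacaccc
Orm2: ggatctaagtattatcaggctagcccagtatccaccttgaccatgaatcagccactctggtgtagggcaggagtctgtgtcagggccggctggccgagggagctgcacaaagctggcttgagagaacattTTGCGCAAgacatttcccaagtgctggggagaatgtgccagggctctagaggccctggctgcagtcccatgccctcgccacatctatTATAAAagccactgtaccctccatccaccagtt
Orm3: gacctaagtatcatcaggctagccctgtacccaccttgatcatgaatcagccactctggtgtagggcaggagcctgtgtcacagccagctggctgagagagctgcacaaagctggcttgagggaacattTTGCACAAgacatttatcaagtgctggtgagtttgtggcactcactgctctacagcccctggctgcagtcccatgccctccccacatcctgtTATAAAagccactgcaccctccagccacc
Lcn2: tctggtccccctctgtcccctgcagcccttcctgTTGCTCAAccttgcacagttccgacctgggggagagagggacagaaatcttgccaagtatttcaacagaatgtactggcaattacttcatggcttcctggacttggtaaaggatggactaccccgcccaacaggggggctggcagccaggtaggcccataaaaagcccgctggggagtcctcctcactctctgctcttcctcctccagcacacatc
Hpx: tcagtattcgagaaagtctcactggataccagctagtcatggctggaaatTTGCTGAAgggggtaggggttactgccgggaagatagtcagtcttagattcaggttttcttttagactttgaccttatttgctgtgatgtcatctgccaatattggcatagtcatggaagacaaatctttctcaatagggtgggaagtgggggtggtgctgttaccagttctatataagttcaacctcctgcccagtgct
In order, these are chr7:46742981-46743230 (minus strand), chr7:46751583-46751832 (plus), chr4:63362199-63362448 (plus), chr4:63355908-63356157 (plus), chr2:32387740-32387989 (minus) and chr7:105600117-105600366 (minus). The promoters of Saa1 and Saa2 were 94.8% identical and those of Orm2 and Orm3 85.5%, while that of Saa1 was 47.1% identical to that of Saa3 and 39.7% to that of Saa4. Of the 10 genes, 8 had an entry among the 32851 RefSeq promoters, the exceptions being Orm1 and Hp.

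TTGCNNAA occurred in all 8 of these promoters and in 9.56% of the 32851 promoters searched over the same length. It began 182 bases before the start in Saa1, 183 in Saa2, 120 in Orm2, 121 in Orm3, 216 in Lcn2 and 200 in Hpx, at 99 bases in Saa3 on the other strand, and at 245 and, on the other strand, 52 bases in Saa4. TATAAA occurred in Orm2 and Orm3, and in 12.4% of all promoters. The palindrome TTCNNNGAA, a form bound by STAT factors, and GGANTTTCC, a core of the NF-kB site, were in none of the 8 windows and in 7.02% and 1.07% of all promoters. The E-box CACGTG, the letters that USF factors bind, was likewise in none of the 8 and in 6.02% of all promoters. Each site was searched in the single spelling given, and other spellings or spacings were not searched. The lack of a match thus does not show that a promoter holds no site for these factors. These are matches of letters and not measured binding.

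Expression was measured as CPM, counts scaled to a common library size and by TMM factors, and levels of different genes were compared as CPM per kb of transcript. In refed WT liver the 10 genes spanned more than 3 orders of size. Hp was highest at 3385 ± 132 CPM per kb (SD, n = 2), rank 18 of the 13946 tested genes with a known length, followed by Hpx at 2673 ± 77.3, rank 23. Orm1 had 552.5 ± 56.2 CPM per kb and Saa4, the form made constitutively, 157.1 ± 0.297. Saa1 (20.5 ± 2.05), Saa3 (13.5 ± 2.69) and Orm2 (9.80 ± 0.336) came next. Lcn2, at 5.73 ± 0.599, and Saa2, at 5.50 ± 0.31, overlapped between libraries and could not be ordered, and every other pair of neighbours in this order was separate in both WT libraries. Orm3 was lowest at 0.920 ± 0.0179, with 27.1% of the genes below it. Together the 10 genes held 0.924% of the WT and 1.14% of the JMJD1C-LKO counts.

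Total counts were 51265128 to 54400509 per library, and Jmjd1c, the targeted gene, was not reduced in the libraries labelled JMJD1C-LKO beyond the threshold. It had 22.0 and 22.8 CPM in WT and 20.04 and 20.48 CPM in JMJD1C-LKO, a log2 difference of -0.14 ± 0.084 (edgeR adjusted p = 0.233). The table counts whole transcripts, so it cannot show the loss of single exons. By RT-qPCR the study reported a fall of Jmjd1c mRNA in livers of JMJD1C-LKO mice that was far larger than the difference between these libraries. By immunoblot it reported no detectable protein. Those measurements are not analysed here. Directions below are those between libraries so labelled. Of all genes tested 14.6% were higher and 13.4% lower in JMJD1C-LKO at an adjusted p under 0.05, and in 33.7% both JMJD1C-LKO libraries lay above both WT libraries.

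Of the 10 acute phase genes 9 were past that threshold and all 9 were higher in JMJD1C-LKO, beside the 14.6% of all genes. The genes were listed with this contrast known, so the changes are described without tests and nothing is read from the count. The largest folds were in Orm3, Saa2, Lcn2 and Saa1, and the smallest in Hpx, Saa4 and Hp. The fold did not follow the WT level throughout, since Saa3 and Orm2 had lower WT levels per kb than Saa1 and smaller folds (1.54 and 3.63 against 5.86). The median log2 fold change was 1.43, against 0.006 over all genes. In these libraries of whole liver, more cells of a type and more RNA per cell cannot be told apart.

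**Figure D2:**
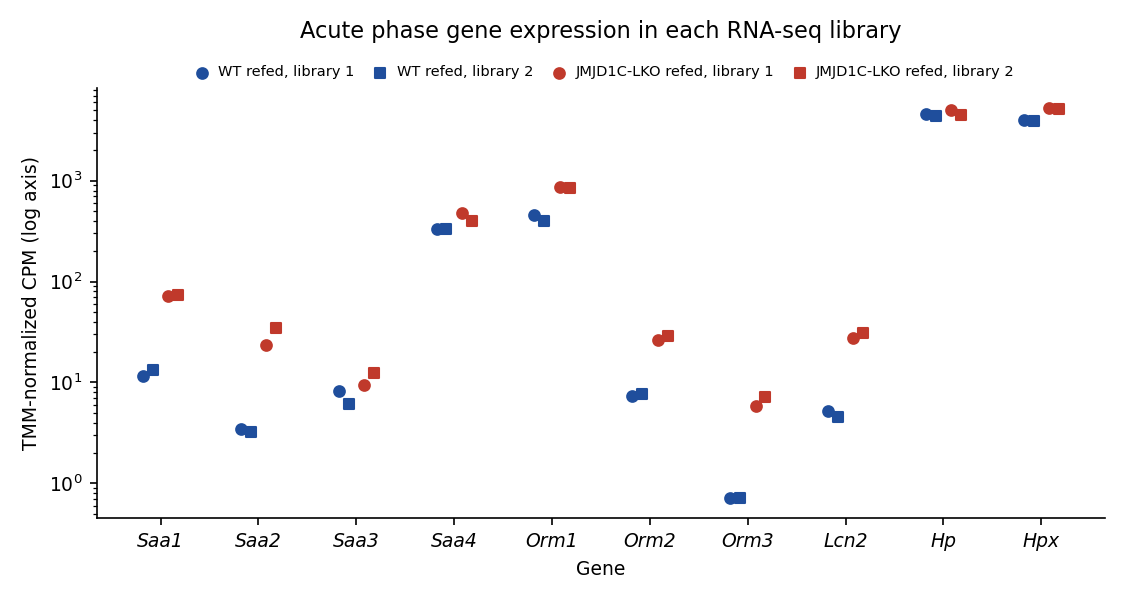
TMM-normalized CPM (log axis) of each acute phase gene in the 2 WT refed (blue) and 2 JMJD1C-LKO refed (red) libraries, 1 point per library. Red points lie above blue points for every gene except Hp, where the ranges overlap (4361 to 4612 against 4524 to 5039 CPM).

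Saa1, a main acute phase serum amyloid A of mouse plasma, had 11.6 and 13.3 CPM in the 2 WT libraries and 72.6 and 73.7 CPM in the 2 JMJD1C-LKO libraries. Both JMJD1C-LKO values were far above both WT values, and the log2 fold change was 2.55 ± 0.094 (SE), or 5.86-fold. Saa2, the other inducible plasma form, had 3.47 and 3.22 CPM in WT and 23.6 and 34.9 CPM in JMJD1C-LKO. The second JMJD1C-LKO library was the higher, and the log2 fold change was 3.13 ± 0.18, or 8.75-fold. With the counts of both genes summed, which does not depend on how reads shared by these 2 were divided (the 9 windows shared by Saa1 and Saa3 remain), there were 15.1 and 16.6 CPM in WT and 96.2 and 108.6 CPM in JMJD1C-LKO, or 6.47-fold. Saa2 made up 23.1% and 19.4% of that sum in WT and 24.5% and 32.2% in JMJD1C-LKO, so most of the sum was Saa1 in every library.

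Saa3, which is made outside hepatocytes by macrophages and fat cells as well as in inflamed liver, differed less. It had 8.16 and 6.14 CPM in WT and 9.53 and 12.5 CPM in JMJD1C-LKO, a log2 fold change of 0.62 ± 0.17. The lower JMJD1C-LKO library was only slightly above the higher WT library. Saa4 had 330.4 and 329.6 CPM in WT and 478 and 395 CPM in JMJD1C-LKO, a log2 fold change of 0.40 ± 0.099. The WT libraries were almost the same and both JMJD1C-LKO libraries were above them.

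Orm1, the main orosomucoid of mouse liver, had 461 and 399.5 CPM in WT and 874 and 843 CPM in JMJD1C-LKO, close to a doubling (1.995-fold, with a log2 SE of 0.093). Orm2 had 7.41 and 7.77 CPM in WT and 26.3 and 28.9 CPM in JMJD1C-LKO (log2 fold change 1.86 ± 0.0999). Orm3 had 0.714 and 0.709 CPM in WT and 5.87 and 7.20 CPM in JMJD1C-LKO (log2 fold change 3.20 ± 0.22). In none of these 3 genes did the groups overlap, and the fold was larger the lower the WT level. The WT value of Orm3 rests on 37 counts in each library, against 290 and 397 in JMJD1C-LKO.

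The orosomucoid sum was 438.7 ± 43.5 CPM in WT and 892.6 ± 18.7 CPM in JMJD1C-LKO (SD, n = 2), or 2.03-fold, and it was almost wholly Orm1, which held 98.3% and 97.9% of it in WT and 96.5% and 95.9% in JMJD1C-LKO. The share of Orm3 in Orm2 plus Orm3 was 8.87% and 8.27% in WT and 18.3% and 20% in JMJD1C-LKO. How far assignment of shared reads set the single values was not tested.

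**Figure D3:**
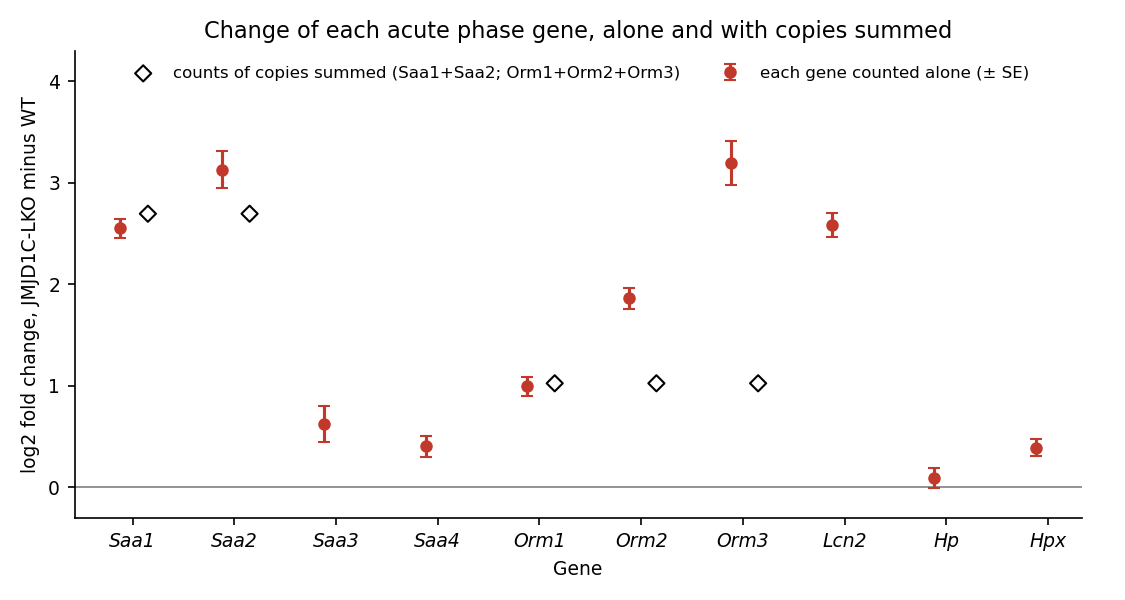
Log2 fold change of each acute phase gene, JMJD1C-LKO refed minus WT refed, from edgeR with SE bars (red), and the value when the counts of copies were summed before the fit (open diamonds, no error drawn). Orm3, Saa2, Lcn2 and Saa1 lie above 2.5, Hp lies near 0, and summing places Saa1 and Saa2 at 2.70 and the 3 orosomucoid genes at 1.02.

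Lcn2 had 5.25 and 4.53 CPM in WT and 27.5 and 31.0 CPM in JMJD1C-LKO, a log2 fold change of 2.58 ± 0.12, or 5.99-fold. Its transcript shares no 50-base window with the other 9 genes and its counts were whole numbers, so this change does not involve divided reads. Lipocalin-2 is also a granule protein of neutrophils. Of 12 neutrophil marker genes, 4 could be tested and 1 was higher, Csf3r, the receptor for granulocyte colony stimulating factor, with 1.74 and 1.69 CPM in WT and 4.66 and 5.86 CPM in JMJD1C-LKO (edgeR adjusted p = 0.000614). The summed level of the list was 2.36 to 2.70 CPM in WT and 6.90 to 7.88 CPM in JMJD1C-LKO. Csf3r made up most of that sum in every library. Ltf and Ngp, other granule genes, were too low to test. Ltf was at 0 in both WT libraries and at 0.182 and 0.0544 CPM in JMJD1C-LKO. Ngp overlapped between groups, with 0.116 and 0 CPM in WT and 0.101 and 0.0907 CPM in JMJD1C-LKO. Elane, Mpo and Cxcr2, also too low to test, were higher in both JMJD1C-LKO libraries than in both WT libraries, at 0.202 CPM or less. The 4 tested markers likewise had both JMJD1C-LKO libraries above both WT libraries, as did 33.7% of all genes tested. Their median log2 fold change was 1.18. S100a9, among the most abundant neutrophil transcripts, was below 1 CPM in all 4 libraries. It had 0.444 and 0.230 CPM in WT and 0.607 and 0.871 CPM in JMJD1C-LKO (log2 fold change 1.13 ± 0.45, edgeR adjusted p = 0.0865). The part of neutrophils in the level of Lcn2 was not tested.

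Hpx had 4037 and 3875 CPM in WT and 5289 and 5094 CPM in JMJD1C-LKO, a log2 fold change of 0.39 ± 0.088 with both JMJD1C-LKO libraries above both WT libraries. Hp had 4612 and 4361 CPM in WT and 5039 and 4524 CPM in JMJD1C-LKO, and the lower JMJD1C-LKO library lay within the WT range (log2 fold change 0.09 ± 0.095). Of the 2 Hp transcripts in the table, NM_017370 held 76.4% to 79.3% of the counts of the gene in the 4 libraries.

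The count of 9 moved when 1 library at a time was left out, in fits where the lone library of a group is assumed to vary like those of the other group. Saa4 and Hpx were no longer past it without WT library 1 (log2 fold changes 0.40 and 0.42). Saa3, Saa4 and Hpx were no longer past it without WT library 2 (0.43, 0.40 and 0.36), and Saa3 also without JMJD1C-LKO library 2 (0.42). The log2 fold change over these 4 fits ranged from 0.42 to 0.84 for Saa3, from 0.25 to 0.53 for Saa4 and from 0.36 to 0.42 for Hpx. These are descriptions of the same values that the genes were listed with.

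Patterns over the 4 RNA libraries were compared by the distance between log2 CPM values centred on each gene's mean. The 7527 other genes compared had a mean of at least 10 CPM over the 4 libraries. The gene most like both Lcn2 and Orm3 was Mt1, a metallothionein, at distances of 0.221 and 0.298. Saa1 was nearest to Tff3 (0.296), Saa2 to H2-Ab1 (0.139), Saa3 to Ppp1r9b (0.116) and Orm2 to Acmsd (0.124). Orm1 was nearest to Pold4 (0.028), Saa4 to Aadat (0.034), Hp to Igfbp4 (0.009) and Hpx to Gm16548 (0.017). A pattern over 4 libraries is coarse, and many genes lie at short distances from genes that differ little.

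Other genes of the acute phase response were taken by role, and their values are log2 fold changes ± SE, JMJD1C-LKO minus WT, with edgeR adjusted p. Over 7 lists with 95 tested genes, 28 were higher and 7 lower in JMJD1C-LKO at an adjusted p under 0.05, where 14.6% of all genes tested were higher and 13.4% lower. The count of higher genes was 16 without WT library 1 and 17 without WT library 2, and that of lower genes was 3 without either and 13 without JMJD1C-LKO library 1.

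Among 28 tested positive acute phase proteins, those that rise in inflammation, 11 were higher, 2 were lower and 15 did not pass, with a median log2 fold change of 0.22. Without JMJD1C-LKO library 2 the count of higher genes was 17, and that of lower genes was 1 without that library or either WT library and 4 without JMJD1C-LKO library 1. The metallothioneins Mt2 and Mt1, which bind zinc and copper, led the list. Mt2 had 29.3 and 23.7 CPM in WT and 159 and 204 CPM in JMJD1C-LKO (log2 fold change 2.77 ± 0.14, adjusted p = 1.01e-05), and Mt1 had a log2 fold change of 2.32 ± 0.13 (adjusted p = 1.59e-05). Pigr, the carrier of secreted antibodies into bile, rose by 1.18 ± 0.095 on the log2 scale (adjusted p = 7.54e-05), and Serpina3n, a protease inhibitor, by 0.88 ± 0.087 (adjusted p = 0.00021). The 2 lower genes were Mbl2 and Cfb. Mbl2 had 501 and 497 CPM in WT and 310 and 300 CPM in JMJD1C-LKO (log2 fold change -0.71 ± 0.078, adjusted p = 0.000337). Cfb had a log2 fold change of -0.30 ± 0.087 (adjusted p = 0.0306), a call that did not hold in every fit with a library left out. The fibrinogen chains Fga, Fgb and Fgg did not pass (edgeR adjusted p = 0.0953, 0.136 and 0.0911). Their log2 fold changes were 0.30 ± 0.12, 0.21 ± 0.095 and 0.26 ± 0.10. For each chain both JMJD1C-LKO libraries lay above both WT libraries, as for 17 of the 28 tested genes of the list.

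Of 15 negative acute phase proteins, which fall in inflammation, 0 were higher by edgeR or DESeq2 (1 at an unadjusted p under 0.05) and 1 was lower, with a median of -0.02, and without JMJD1C-LKO library 1 these counts were 1 and 2. That gene was Serpina6, the plasma carrier of glucocorticoids, with 438.5 and 413 CPM in WT and 233 and 184 CPM in JMJD1C-LKO (log2 fold change -1.03 ± 0.11, adjusted p = 0.000313). Albumin, transthyretin and the other 12 did not pass.

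**Figure D4:**
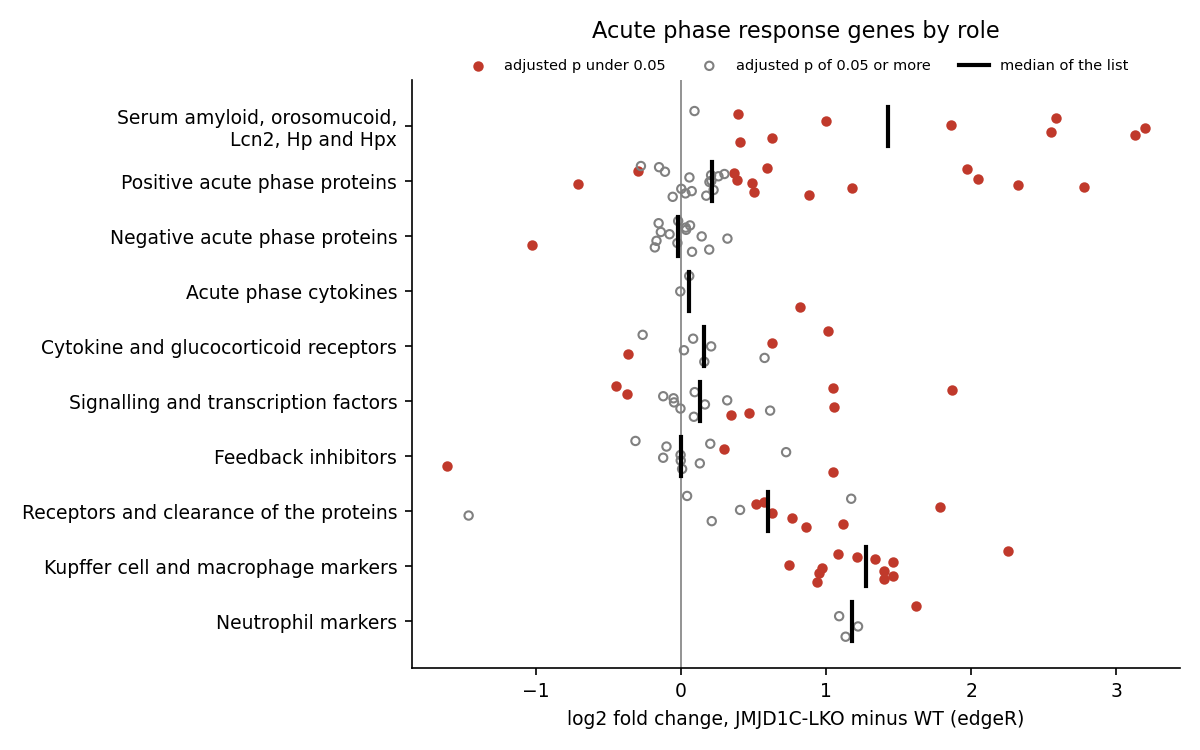
Log2 fold change (JMJD1C-LKO refed minus WT refed, edgeR) of the tested genes of each role, 1 point per gene; filled points had an adjusted p under 0.05 and the black bar is the median of the list. The serum amyloid, orosomucoid, Lcn2, Hp and Hpx genes (chosen with this contrast known) have a median of 1.43, the negative acute phase proteins one of -0.02, and all 12 Kupffer cell and macrophage markers are filled and above 0.

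Upstream of these proteins, 3 of 9 cytokine genes could be tested. Il1b rose from 2.80 and 2.65 CPM in WT to 4.27 and 5.32 CPM in JMJD1C-LKO (log2 fold change 0.82 ± 0.19, adjusted p = 0.0115, but 0.0887 without WT library 1 and 0.12 without WT library 2), while Il1a and Ctf1 did not pass and Tnf was below 0.3 CPM in each library. Of 9 receptors, 2 were higher and 1 lower, and without JMJD1C-LKO library 1 these were 4 and 2. Il1r1, the interleukin-1 receptor, rose by 1.01 ± 0.12 on the log2 scale (adjusted p = 0.000539) and Il6ra, the ligand-binding chain of the interleukin-6 receptor, by 0.62 ± 0.078 (adjusted p = 0.000626). Nr3c1, the glucocorticoid receptor, fell by 0.37 ± 0.11 on the log2 scale (adjusted p = 0.0316), a call lost without WT library 1 (0.2), WT library 2 (0.139) or JMJD1C-LKO library 2 (0.0916).

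Of 16 signalling and transcription factor genes, 5 were higher and 2 lower, which became 3 and 0 without either WT library, and 1 was lower without JMJD1C-LKO library 2. Cebpd, a C/EBP factor induced by cytokines, had 3.84 and 4.47 CPM in WT and 11.1 and 19.1 CPM in JMJD1C-LKO (log2 fold change 1.86 ± 0.23, adjusted p = 0.000622). Cebpb rose by 1.05 ± 0.13 on the log2 scale (adjusted p = 0.000662), Stat3, the factor activated by interleukin-6, by 0.47 ± 0.078 (adjusted p = 0.00246), and Nfkb2, an NF-kB subunit, by 1.05 ± 0.21 (adjusted p = 0.00582). Without WT library 2 Stat3 was at 0.0597, and without WT library 1 Nfkb2 was at 0.0728.

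Of 12 feedback inhibitors, 2 were higher and 1 lower, shares not far from those of all genes, and 0 were higher without either WT library. Without either JMJD1C-LKO library 2 were lower. Socs2, which restrains growth hormone signalling, had 54.5 and 55.3 CPM in WT and 17.3 and 18.5 CPM in JMJD1C-LKO, so that it fell by 1.62 ± 0.083 on the log2 scale (adjusted p = 1.01e-05). Socs3, the inhibitor of interleukin-6 signalling, had 9.97 and 9.22 CPM in WT and 8.72 and 10.5 CPM in JMJD1C-LKO, and the groups overlapped (log2 fold change 0.01 ± 0.13, adjusted p = 0.976). Tnfaip3 (log2 fold change 1.05 ± 0.24, adjusted p = 0.0116) and Nfkbia (0.30 ± 0.093, adjusted p = 0.04), both brakes on NF-kB, were higher. Without WT library 1 they were at 0.124 and 0.194 and without WT library 2 at 0.0579 and 0.252, and Nfkbia was at 0.145 without JMJD1C-LKO library 2.

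Of 12 receptors and clearance proteins for the 10 plasma proteins, 7 were higher and 0 were lower by edgeR or DESeq2 (1 lower at an unadjusted p under 0.05), with a median of 0.60. The count of higher genes was 3 without WT library 1 and 4 without WT library 2, and 1 was lower without JMJD1C-LKO library 1. Cd163, Tlr4 and Cd36 were lost in both of these fits and Tlr2 in the first. Scarb1, a receptor for high density lipoprotein and serum amyloid A, rose by 0.76 ± 0.079 on the log2 scale (adjusted p = 0.000253) and Lrp1, the receptor for hemopexin with bound heme, by 0.62 ± 0.079 (adjusted p = 0.000653). Fpr2, a receptor of phagocytes for serum amyloid A, rose by 1.78 ± 0.29 on the log2 scale (adjusted p = 0.00238) and Tlr2 by 1.11 ± 0.23 (adjusted p = 0.00643, but 0.086 without WT library 1).

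Markers of other cells were compared in the same libraries. By edgeR, 14.6% of all genes tested were higher and 13.4% lower at an adjusted p under 0.05. Nothing is read from counts of 1 or 2 genes in lists this short. All 12 Kupffer cell and macrophage markers were higher, with a summed level of 364 to 381 CPM in WT and 716 to 1023 CPM in JMJD1C-LKO, including Clec4f (log2 fold change 0.97 ± 0.13, adjusted p = 0.000849) and Cd5l (1.46 ± 0.15, adjusted p = 0.000282). By edgeR, of the endothelial markers 6 of 8, of the lymphocyte markers 2 of 6, of the stellate cell and fibroblast markers 2 of 8 and of the hepatocyte markers 7 of 12 were higher, as were 1 of 6 erythroid markers and the 1 adipocyte marker that could be tested, and of 6 cholangiocyte markers 0 passed by edgeR or DESeq2 (1 at an unadjusted p under 0.05, and 1 lower without JMJD1C-LKO library 2). Without WT library 2 the counts were 3 endothelial and 4 hepatocyte genes, and no lymphocyte or stellate cell and fibroblast marker passed without either WT library, nor a stellate cell and fibroblast marker without JMJD1C-LKO library 2. Stellate cell and fibroblast markers numbered 5 higher and 1 lower without JMJD1C-LKO library 1, and lymphocyte markers 1 without JMJD1C-LKO library 2. Erythroid markers ranged from 5 without WT library 1 to 0 without WT library 2 or JMJD1C-LKO library 1. All 12 Kupffer cell and macrophage markers were higher in each of these 4 fits. Summed hepatocyte markers were 34200 to 35120 CPM in WT and 41900 to 45520 CPM in JMJD1C-LKO. The part of these cells in the levels of Saa3, Lcn2, Il1b, Fpr2 and Tlr2 was not tested.

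H3K9me2, the mark that JMJD1C removes, was mapped in fasted and refed WT liver. MACS2 summits within 1000 bp of a gene's start were counted, and a gene was counted for a group when both livers had one. A two-sided exact permutation test of 2 livers against 2 cannot go below p = 0.33, so the feeding states were not tested against each other. The second refed liver had 9929 summits, but the first had 1297, with 0.233% of all 26180 annotated genes marked at the start against 35.1% in the second, and the nearest summit to any of the 10 genes was 419300 bp away in the first. The first refed liver thus stood apart, and refed values are given with and without it.

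In fasted WT liver Saa4, Hp and Hpx had an H3K9me2 summit at the start in both livers, 3 of 10, while 29.1% of all annotated genes did. The Saa4 summit lay 269 bp and 270 bp downstream of the start in fasted livers 1 and 2, and again 270 bp downstream in refed liver 2. The Hp summit lay 819 bp, 424 bp and 833 bp downstream in those livers and the Hpx summit 249 bp, 303 bp and 504 bp downstream, all inside the genes. Orm1 had a summit 235 bp downstream in fasted liver 2 and 244 bp downstream in refed liver 2, and in fasted liver 1 the nearest was 200501 bp away.

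In refed WT liver 0 of the 10 genes had a summit in both livers, where 0.042% of annotated genes did, and in refed liver 2 alone 4 genes had one, Saa4, Orm1, Hp and Hpx. These 4 are the genes with the highest levels in WT liver. Saa1, Saa2, Saa3, Orm2, Orm3 and Lcn2 had no summit within 1000 bp in any of the 4 livers. For Saa1 and Saa2 the nearest one in both fasted livers and refed liver 2 was the summit at the start of Saa4, 10646 bp and 19499 bp away in fasted liver 1. For Orm2 and Orm3 in fasted liver 2 it was the Orm1 summit, 17658 bp and 11367 bp away, and Lcn2 lay 8654 bp from a summit at the start of the neighbouring gene Ptges2 in fasted liver 1.

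Summits at starts went with expression over all genes. The paper describes H3K9me2 as a repressive mark that others reported at silenced genes. Why summits here were more frequent at expressed genes was not tested. In fasted liver 2, 21.8% of the 2328 tested genes below 1 CPM in WT had one, 66.3% of the 4153 genes from 1 to 10 CPM, 95.0% of the 5977 genes from 10 to 100 CPM 95.5% of the 1249 genes from 100 to 1000 CPM, which hold Saa4 and Orm1, and 92.4% of the 118 genes above that, which hold Hp and Hpx. Saa1, in the 10 to 100 CPM range, was thus among the small share of genes at its level with no summit in that liver, and in the other 2 livers with many summits 75.6% (fasted liver 1) and 86.7% (refed liver 2) of genes in that range had one. Saa2, Saa3, Orm2 and Lcn2 were in the 1 to 10 CPM range and Orm3 was below 1 CPM. The levels come from the refed RNA-seq and the fasted livers are other mice. Summit scores, the −log10 of the q-value, are not comparable between livers, and by rank the Saa4 summit stood at 56.3% of the list from the top in fasted liver 1, 13.9% in fasted liver 2 and 38.1% in refed liver 2.

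**Figure D5:**
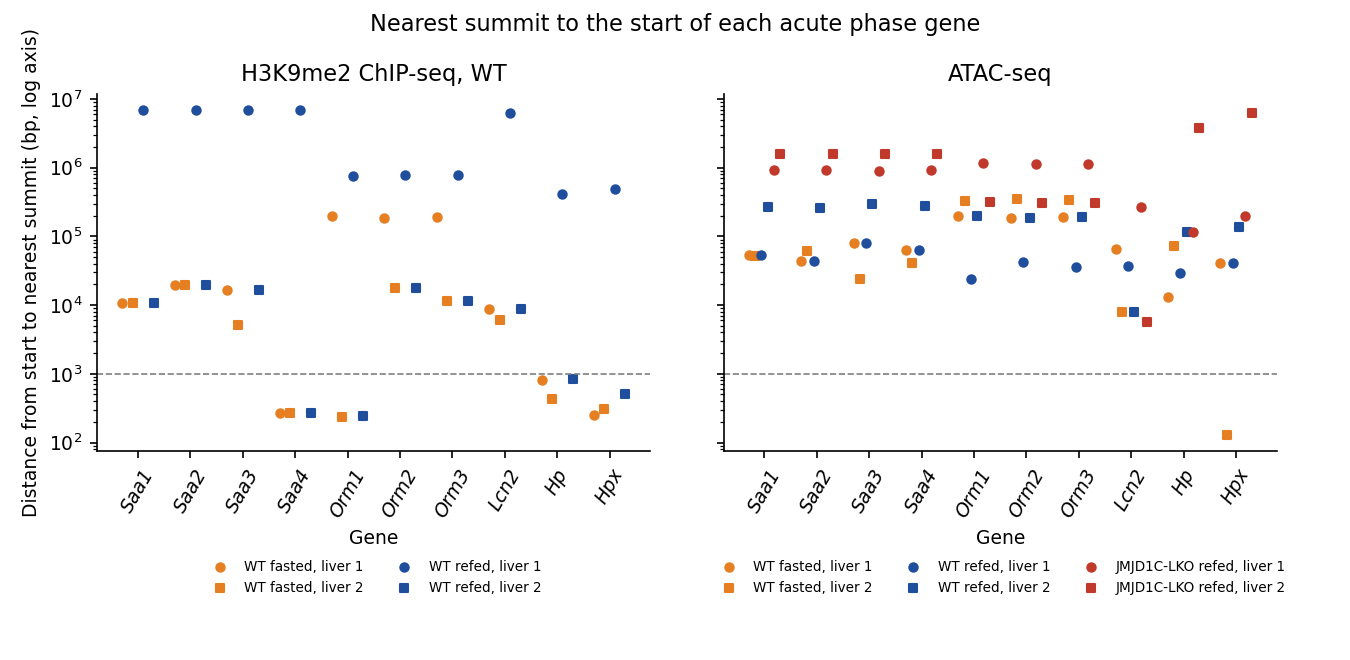
Distance in bp (log axis) from the start of each acute phase gene to the nearest summit in each liver, for H3K9me2 ChIP-seq (left) and ATAC-seq (right); color gives the group, the marker the liver, and the dashed line 1000 bp. Only Saa4, Orm1, Hp and Hpx have H3K9me2 points under the line, the blue circles of refed liver 1 are all at 419300 bp or more, and a single ATAC-seq point (Hpx, 129 bp) is under it.

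In ATAC-seq, where a transposase marks open DNA, none of the 10 genes had a summit at the start in both livers of any group. The share of annotated genes that did was 4.36% for the fasted WT pair, 4.78% for the refed WT pair and 0.397% for the JMJD1C-LKO pair, so a count of 0 of 10 lies near what these sparse lists hold for genes in general. The numbers of summits were 5220 and 7632, 5027 and 3119, and 1450 and 825 in the 3 groups. The single summit at a start was that of Hpx in WT fasted liver 2, 129 bp upstream and so within the Hpx sequence shown above, with a score of 4.56. The nearest summits to Lcn2 were at the starts of its neighbours, 8020 bp upstream at Ptges2 in WT fasted liver 2, 7931 bp upstream at the same gene in WT refed liver 2, and 5659 bp downstream at 1110008P14Rik in JMJD1C-LKO refed liver 2. The lists hold no read counts, so the depth is unknown, and the absence of a summit does not show that a start was closed.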

How the data were processed

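RNA-seq, ATAC-seq and H3K9me2 ChIP-seq of mouse liver were used, with 2 samples in each group. For each RefSeq transcript and library the authors deposited an estimated count, with no scaling for depth. The authors also deposited MACS2 summits called in each liver (mm10) with the −log10 of the q-value, and per the labels the tools were MACS2 2.1.1, BWA, HISAT2, cutadapt 1.2.1 and Partek. How transcript counts were estimated is not given in the sources used here. A table of the authors' own comparison (p-values, a step-up FDR and fold changes per transcript) was not used. Fasted and refed chromatin samples were told apart by the letters in the titles, as the study's file list reads them, since the labels give every sample the same treatment, and the methods state a longer feeding time in general.

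Counts were summed per gene, rounded, filtered with filterByExpr and tested with edgeR 4.0.16 (quasi-likelihood F test, TMM, no block, R 4.3.3), with Benjamini-Hochberg adjustment over 14151 genes and a threshold of 0.05. The SE is the log2 fold change divided by the square root of F. The study's methods name DESeq2, which was run as an alternative (1.42.0). P-values measure the spread between pooled samples, which may be technical. CPM were scaled by TMM, and 24682 of 24994 transcripts were found in RefSeq by identifier for lengths. Starts are those of curated RefSeq transcripts, and summit and start had to lie within 1000 bp. Windows of 50 and 100 bases and coding sequences were compared in RefSeq sequences, by exact match and global alignment. The scripts were tested on simulated data. The genes, lists, motifs and tests were chosen with earlier results of these data known. Named were all 10 genes, up to 4 genes past the threshold per role by smallest p, up to 2 per marker list by level, and the gene most alike in pattern. Genes given as exceptions or beside these (Fga, Fgb, Fgg, Mbl2, Cfb, Il1a, Ctf1, Tnf, Socs3, Cd163, Tlr4, Cd36, Ltf, Ngp, Elane, Mpo and Cxcr2) were added after their values were seen.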

Additional observations from a re-analysis of the deposited data

How the results depend on the processing

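DESeq2 size factors, no filter on low counts, the DESeq2 test and the replicate block each left the counts of genes within 1.5 times and the log2 fold changes of the 10 genes within their spread. The WT and JMJD1C-LKO libraries share the numbers 1 and 2, but the deviations of same-numbered libraries from their group means had a correlation of -0.013 over 14151 genes, so the numbers are not known to pair them. With the replicate block 2211 genes were higher and 1996 lower, against 2066 and 1892 without it, and the median of the 10 genes was 1.43. With 1 library left out at a time, the count of higher genes ranged from 660 to 2590 and that of lower genes from 408 to 2590, the count of higher acute phase response genes from 16 to 35 and that of lower ones from 3 to 13. With copies summed, each copy was given the value of its sum, so Saa1 and Saa2 were both at 2.70 and each orosomucoid gene at 1.02. The median log2 fold change of the 10 genes, which holds these repeated values, was then that of the orosomucoid sum, 1.02. Counting a summit in either liver gave 1 gene with an ATAC-seq summit in WT fasted and 4 with an H3K9me2 summit in WT refed liver. Leaving out liver 1 gave 1 and 4, and leaving out liver 2 gave 0 and 0. Distances of 500 or 5000 bp and a score of at least 5 left all 5 counts of genes with a summit within 1.5 times. The limits are 2 samples a group, pooled RNA, the unknown depth of the summit lists and the shared sequence of the copies.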
